A study of Homo sapiens with 6 samples.

Results

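SLC7A11, GCLM, TFRC and SAT1 are genes of ferroptosis, an iron-dependent form of cell death driven by peroxidation of membrane lipids. They were taken by gene name from the deposited raw count table, which held all 4 among its 2778 features, 1 row each. SLC7A11 and GCLM act in cystine uptake and glutathione synthesis and are counted as protective. TFRC, which imports iron, and SAT1, which breaks down polyamines, are counted as promoting. RNA was measured in A375, an established human melanoma line, grown untreated, in 3 wildtype (WT) libraries and 3 libraries of cells overexpressing cytoglobin (CYGB-OE), a globin that binds haem. The labels do not say whether CYGB-OE is 1 clone, name no empty-vector control, and do not say whether the 3 libraries of a group are separate cultures. The p-values therefore reflect the spread of these libraries alone, and that spread may be technical. Cell death and lipid peroxidation themselves were not measured here.

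The cystine-glutamate antiporter system xc- consists of SLC7A11 and a shared heavy chain, and it supplies cystine for glutathione. GCLM is the modifier subunit of glutamate-cysteine ligase, the rate-limiting enzyme of glutathione synthesis, and glutathione is the substrate with which GPX4 reduces lipid hydroperoxides. The transferrin receptor TFRC brings in iron, which feeds the radical chemistry of lipid peroxidation. Iron-regulatory proteins hold its mRNA stable in iron-poor cells by binding hairpins after the stop codon. SAT1 acetylates spermidine and spermine, which marks them for oxidation or export. Melanoma cells are known to differ in their sensitivity to ferroptosis with their state of differentiation.

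The sequences below are matches to an iron-responsive hairpin pattern in TFRC, and promoter stretches of GCLM, TFRC and SAT1. They are shown because they lie in or beside genes whose RNA differed between the groups. An iron-responsive element was searched in the longest coding transcript of each gene, after the stop codon, as a cytosine, 5 bases, the loop CAGTGN and 5 bases that had to pair with the 5 before the loop (G-T pairs allowed). TFRC held 4 matches, and SLC7A11, GCLM and SAT1 held 0. An element that departs from this pattern is missed, so the matches need not be all the elements of a gene. Of 19684 coding genes, 120 (0.610%) held at least 1 match and 5 held at least 2, and TFRC was the only gene with 4. These regions differ in length between genes. The 4 TFRC sites, from GENCODE release 29 transcripts on the minus strand of GRCh38, lie at chr3:196050979-196051007, chr3:196050575-196050603, chr3:196050510-196050538 and chr3:196050463-196050491, with the loop in capitals.
TFRC site 1: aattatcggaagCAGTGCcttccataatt
TFRC site 2: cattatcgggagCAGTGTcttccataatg
TFRC site 3: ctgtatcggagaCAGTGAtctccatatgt
TFRC site 4: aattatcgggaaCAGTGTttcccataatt
The cytosine before the upper stem is in all 4 because the search pattern requires it. A match describes these letters and does not show that a protein was bound.

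RefSeq promoter windows (GRCh38.p14, 250 bases before to 50 after the RefSeq start) were matched by symbol for 3 of the 4 genes, GCLM, TFRC and SAT1. They were searched on both strands for the antioxidant response element core TGACNNNGC, to which NRF2 binds, the hypoxia response element core ACGTG, and the ATF4 site core TGATGNAA. Among 35116 promoter windows of the same length, 13.3% held the first, 21.4% the second and 3.62% the third. No 2 matches overlapped in these windows. The antioxidant core was found once in the GCLM window, on the reverse strand, and the hypoxia core once in the TFRC window. The SAT1 window held none of the 3 motifs, which says only that these letters are not in it. The 250 bases before the RefSeq start are printed for GCLM, chr1:93909431-93909680 (minus strand), and SAT1, chrX:23782923-23783172 (plus strand), with matches in capitals. For TFRC the first 181 bases of the window are printed, chr3:196082160-196082340 (minus strand), which end before its RefSeq start because GENCODE transcripts begin further upstream.
GCLM: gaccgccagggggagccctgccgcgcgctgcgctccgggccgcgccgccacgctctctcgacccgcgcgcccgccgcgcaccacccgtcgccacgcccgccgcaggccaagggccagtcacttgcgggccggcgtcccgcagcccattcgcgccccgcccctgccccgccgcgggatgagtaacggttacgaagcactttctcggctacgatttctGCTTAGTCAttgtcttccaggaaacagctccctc
TFRC: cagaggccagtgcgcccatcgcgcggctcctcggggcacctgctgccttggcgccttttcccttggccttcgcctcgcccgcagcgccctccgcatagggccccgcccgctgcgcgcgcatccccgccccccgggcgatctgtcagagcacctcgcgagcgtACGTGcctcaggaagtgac
SAT1: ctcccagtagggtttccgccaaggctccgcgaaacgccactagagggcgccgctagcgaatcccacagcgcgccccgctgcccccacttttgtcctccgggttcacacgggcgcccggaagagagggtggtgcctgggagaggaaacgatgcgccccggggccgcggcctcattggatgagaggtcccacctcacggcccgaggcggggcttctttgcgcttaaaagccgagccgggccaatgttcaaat

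Every value below comes from a table that holds only part of the genes. On the scale used here, no log2 ratio of CYGB-OE to WT means fell between -0.995 and 0.995. That scale was centred on this empty band, which assumes a symmetric selection. All features of the table, these 4 included, thus differed about 2-fold or more on it between these same libraries. A call is therefore not independent evidence of a difference. A library had 1533260 to 2801576 counts in the listed features, which is not its depth. CYGB, checked first, had 33 to 47 counts per WT library and 20740 to 26267 per CYGB-OE library. CYGB-OE replicate 1 stood apart: its nearest partner differed from it by a median of 0.467 log2 units over all features, against 0.196 to 0.223 for the other libraries. Of the markers fixed for melanocytes, 2 of 8 were in the table, TYRP1 and DCT. Their summed normalized count was 23.7 to 50 in WT and 0.9 to 8.5 in CYGB-OE, where DCT was at 0 in all 3 libraries.

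Among markers of other cell types the table held LYZ (1 of 7 leukocyte markers), KRT14 (1 of 7 keratinocyte), COL1A2 and COL3A1 (2 of 7 fibroblast), KDR and TIE1 (2 of 6 endothelial) and 0 of 7 erythroid markers. Summed normalized counts went from 43.6 to 55.3 in WT to 223 to 341 in CYGB-OE for leukocyte markers, from 13.8 to 20.5 to 51.8 to 68.1 for keratinocyte, from 1.1 to 4.0 to 38.4 to 193 for fibroblast, and from 166 to 191 to 16.8 to 34.1 for endothelial markers. No marker of these 4 lists that was in the table was at 0 in all libraries of a group. The part of these shifts in the results below was not tested. In bulk RNA, fewer cells of a type and less RNA per cell cannot be told apart.

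Of the 4 genes, SLC7A11, GCLM and TFRC rose in CYGB-OE and SAT1 fell. The protective genes rose about 2-fold each, whereas the promoting genes moved apart, TFRC upward 2.75-fold and SAT1 downward 5.44-fold. Among all 2468 features tested, 28.9% were called higher and 70.9% lower (edgeR quasi-likelihood test, Benjamini-Hochberg adjusted p under 0.05), 99.8% in all, so that passing the test does not set these genes apart. In each of the 4 the groups did not overlap, as in 98.3% of the features of the table (28.3% with CYGB-OE higher and 70.1% with it lower). Values below are normalized counts, that is counts divided by a library scale factor, as mean ± SD over 3 libraries.

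**Figure D1:**
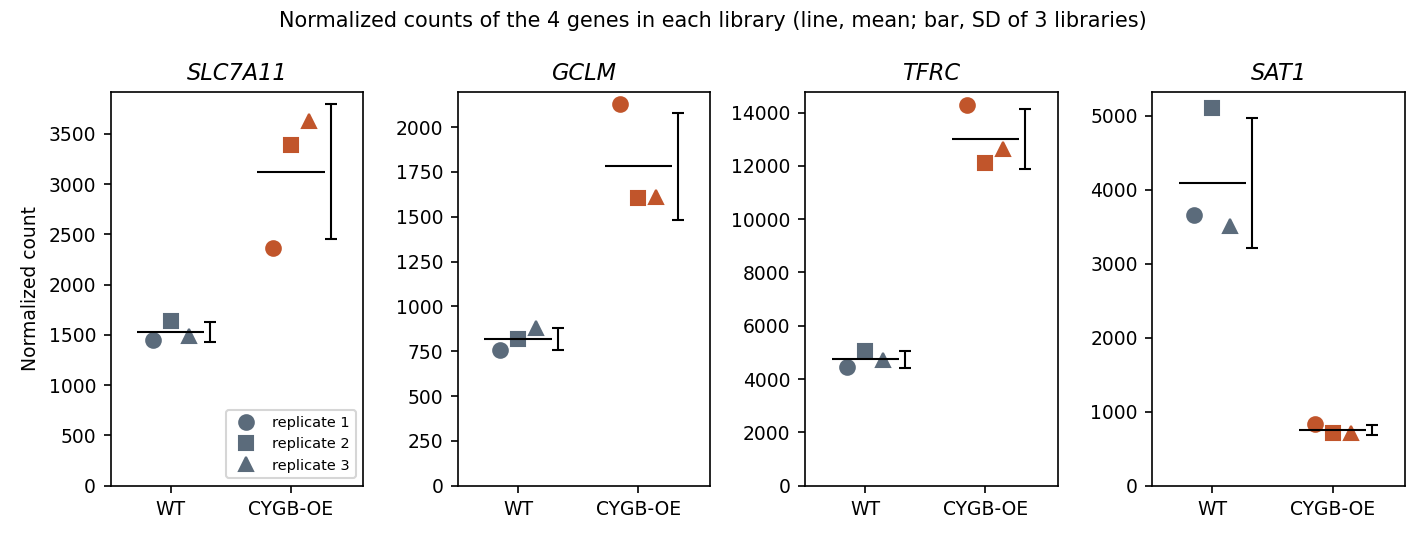
Normalized count (vertical axes, linear from 0, a different range in each panel) of SLC7A11, GCLM, TFRC and SAT1 in the 3 WT and 3 CYGB-OE libraries. Points are libraries with the replicate number by shape, lines are means and bars are SD. SLC7A11, GCLM and TFRC lie higher in every CYGB-OE library than in any WT library, and SAT1 lies lower.

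SLC7A11 (ENSG00000151012, GRCh38 chr4:138164097-138242349, minus strand, protein coding) carries cystine into the cell in exchange for glutamate. Replicates 1 to 3 of WT held 1322, 2071 and 1404 raw counts, and those of CYGB-OE 2212, 3032 and 3992. The normalized counts were 1454, 1637 and 1492 in WT and 2360, 3386 and 3628 in CYGB-OE. The 3 WT libraries lay close together, and CYGB-OE replicate 1 was the lowest of its group but still above the highest WT library. SLC7A11 rose from 1528 ± 96.5 to 3124 ± 673, a 2.05-fold change (log2 fold change 1.03, SE 0.16, 95% interval 0.67 to 1.40; edgeR adjusted p = 0.000312). The annotation places SLC7A11-AS1 on the opposite strand, with 865 exonic bases in common. With an unknown strand setting some SLC7A11 counts could be antisense reads.

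GCLM (ENSG00000023909, GRCh38 chr1:93885205-93909456, minus strand, protein coding) raises the catalytic efficiency of glutamate-cysteine ligase. Raw counts were 687, 1032 and 826 for WT and 1994, 1438 and 1770 for CYGB-OE, in replicate order. The normalized counts were 756, 816 and 878 in WT and 2127, 1606 and 1609 in CYGB-OE. In GCLM, CYGB-OE replicate 1 was the highest of its group, the reverse of its place in SLC7A11. GCLM rose from 816 ± 61.2 to 1780 ± 300, a 2.18-fold change (log2 fold change 1.12, SE 0.14, 95% interval 0.81 to 1.44; edgeR adjusted p = 8.69e-05). No annotated gene overlaps GCLM.

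TFRC (ENSG00000072274, GRCh38 chr3:196027183-196082189, minus strand, protein coding) encodes the receptor for transferrin-bound iron. Raw counts were 4035, 6393 and 4440 for WT and 13388, 10850 and 13915 for CYGB-OE. The normalized counts were 4437, 5053 and 4719 in WT and 14280, 12120 and 12650 in CYGB-OE. Both groups were tight, with coefficients of variation of 6.5% and 8.67%, and a wide gap lay between them. TFRC rose from 4736 ± 308 to 13010 ± 1129, a 2.75-fold change (log2 fold change 1.46, SE 0.10, 95% interval 1.23 to 1.68; edgeR adjusted p = 5.54e-06). The 2 small genes annotated inside TFRC share 0 exonic bases with it.

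SAT1 (ENSG00000130066, GRCh38 chrX:23783173-23786226, plus strand, protein coding) is the rate-limiting enzyme of polyamine breakdown and is known as a p53 target that sensitises cells to ferroptosis. Raw counts were 3333, 6454 and 3297 for WT and 783, 634 and 785 for CYGB-OE. The normalized counts were 3665, 5101 and 3504 in WT and 835, 708 and 713 in CYGB-OE. WT replicate 2 was the highest, and the CYGB-OE libraries varied less than the WT libraries (coefficients of variation 9.57% and 21.5%). SAT1 fell from 4090 ± 879 to 752 ± 72.0, a 5.44-fold lower mean (log2 fold change -2.44, SE 0.17, 95% interval -2.82 to -2.07; edgeR adjusted p = 5.54e-06). No annotated gene overlaps SAT1.

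The 4 calls held when the adjustment took in all 58780 annotated genes, those absent from the table being treated as not called. The edgeR adjusted p was then 0.00742 for SLC7A11, 0.00207 for GCLM and 0.000132 for each of TFRC and SAT1, a stricter reading that 73.7% of the features tested also passed. The size of the changes depends on the level set between the groups. With TMM factors over the whole table, which raise all log2 fold changes by 1.20, the log2 fold changes were 2.23 for SLC7A11, 2.32 for GCLM, 2.66 for TFRC and -1.25 for SAT1. The rank of a change by size also turned with the scaling, a comparison chosen after seeing the data. SAT1 exceeded 84.9% of the features tested and SLC7A11 4.54% under the main scaling, and 59.8% and 68.8% with TMM over the table. All 4 kept their direction and their call under TMM over the table, with upper-quartile factors, with total counts and with DESeq2's size factors. Each of these scalings raises all log2 fold changes, so SLC7A11, GCLM and TFRC could hardly lose a call by them. Under each, 714 features were called higher.

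**Figure D2:**
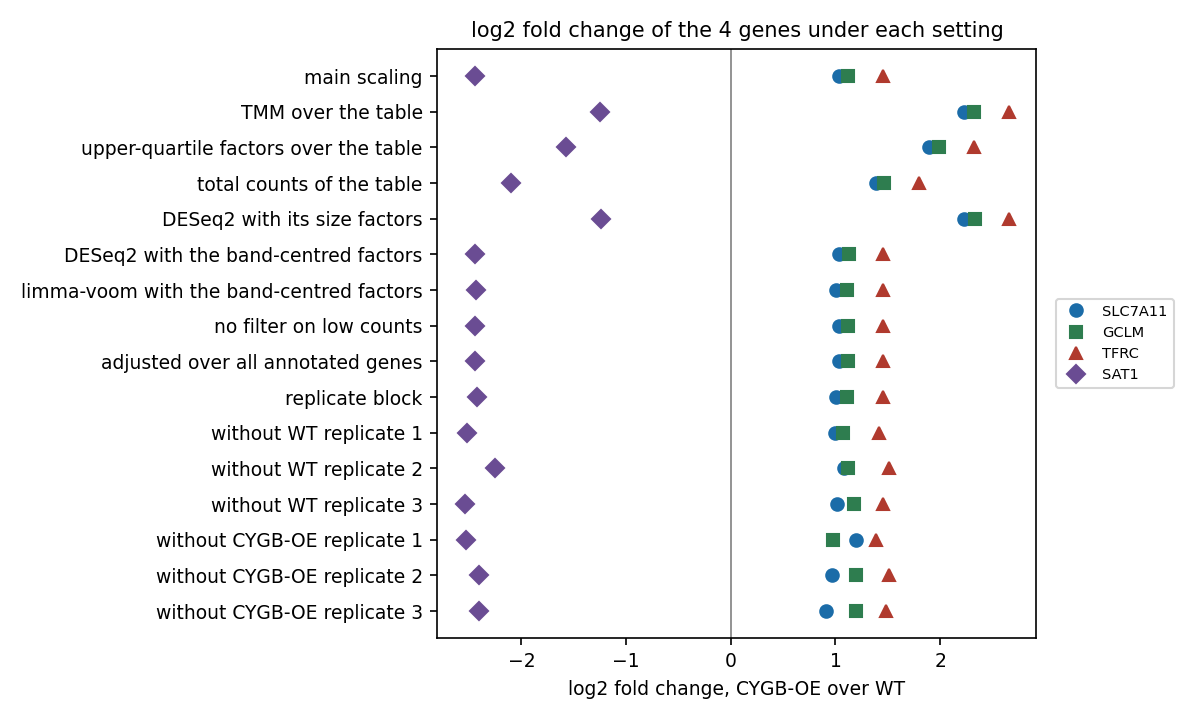
Log2 fold change (horizontal axis, CYGB-OE over WT) of the 4 genes under the main scaling and each of 15 other settings (vertical axis). SLC7A11, GCLM and TFRC stay above 0 and SAT1 below 0 in every row, while scalings over the whole table move all 4 to the right.

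Leaving out single libraries moved the genes less than the scaling did. Without CYGB-OE replicate 1, the library that stood apart, the log2 fold changes were 1.20 for SLC7A11, 0.98 for GCLM, 1.39 for TFRC and -2.53 for SAT1. The order of SLC7A11 and GCLM thus turned on that library. Over all 6 such fits, TFRC ranged from 1.39 to 1.51 and SAT1 from -2.54 to -2.25, the latter value without WT replicate 2.

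Ratios of 2 genes within a library do not depend on any scaling between libraries. TFRC and SAT1 had similar counts in WT, with TFRC over SAT1 at 1.21, 0.991 and 1.35 in replicates 1 to 3. In CYGB-OE that ratio was 17.1, 17.1 and 17.7. The promoting pair therefore lay apart by nearly the same ratio in every CYGB-OE library. The log2 ratio rose from 0.23 ± 0.23 to 4.11 ± 0.03 (SD, n = 3 each), a difference of 3.88. The exact two-sided permutation p was 0.1, the smallest that 3 against 3 allow (adjusted p = 0.12 over the 6 pairs compared). Both genes come from a table selected for differences between these same libraries, in opposite directions. A separation of their ratio was therefore largely set by that selection, and this p is not independent evidence.

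The protective genes also moved against SAT1. SLC7A11 over SAT1 was 0.397, 0.321 and 0.426 in WT and 2.83, 4.78 and 5.09 in CYGB-OE, and GCLM over SAT1 was 0.206, 0.16 and 0.251 in WT and 2.55, 2.27 and 2.25 in CYGB-OE. SAT1 thus went from more counts than either to fewer than both. The log2 differences were 3.44 and 3.54, each with groups that did not overlap and an exact permutation p = 0.1 (adjusted p = 0.12). As for TFRC over SAT1, the selection of the table largely set this separation in advance.

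Among the 3 genes that rose, the ratios moved far less. SLC7A11 over TFRC was 0.328, 0.324 and 0.316 in WT and 0.165, 0.279 and 0.287 in CYGB-OE, a log2 difference of -0.45 that became -0.19 without CYGB-OE replicate 1. GCLM over TFRC was 0.170, 0.161 and 0.186 in WT and 0.149, 0.133 and 0.127 in CYGB-OE, a log2 difference of -0.34. In both pairs every CYGB-OE library lay below every WT library, with an exact permutation p = 0.1 (adjusted p = 0.12).

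SLC7A11 over GCLM was 1.92, 2.01 and 1.70 in WT and 1.11, 2.11 and 2.26 in CYGB-OE. The groups overlapped, and the log2 difference was -0.11 with an exact permutation p of 1. It turned to 0.22 without CYGB-OE replicate 1, and over the 6 fits that each left out a library it lay between -0.29 and 0.22. A difference between the changes of the protective genes was not detectable with these libraries.

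**Figure D3:**
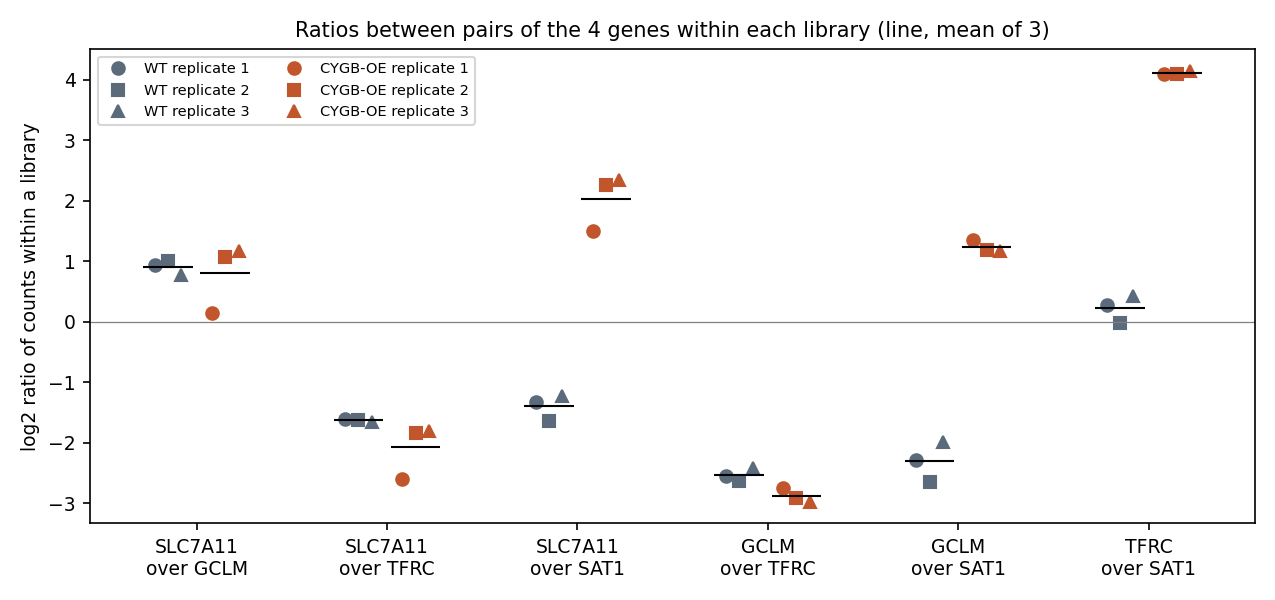
Log2 ratio of counts within each library (vertical axis) for the 6 pairs of the 4 genes (horizontal axis). Points are libraries, with WT in grey, CYGB-OE in orange and the replicate number by shape, and lines are means of 3. The 3 pairs with SAT1 as denominator shift by 3.44 to 3.88, while the groups overlap only for SLC7A11 over GCLM.

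Levels can be compared between genes only per length. Per kilobase of annotated exon, SAT1 had the highest normalized count in WT, at 1637 ± 352. TFRC followed at 601 ± 39.1, and SLC7A11 and GCLM, at 158 ± 10.0 and 151 ± 11.3, did not differ beyond their spread. In CYGB-OE TFRC was highest, at 1650 ± 143. GCLM at 329 ± 55.4, SLC7A11 at 324 ± 69.8 and SAT1 at 301 ± 28.8 per kilobase did not differ beyond their spread. On these lengths SAT1 went from the highest of the 4 levels per kilobase to a level like those of the glutathione genes. The length joins the exons of all annotated transcripts of a gene, for SAT1 9 transcripts and 2498 bases. If shorter transcripts are the ones expressed, the level of a gene is higher than given. The order between genes, and the likeness in CYGB-OE, therefore depend on the length used.

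The wider pathway was described with 5 lists of ferroptosis-related genes chosen by known role, 123 genes in all. The table held 16 of them, the 4 above included, and all 16 were tested. Of these, 6 rose and 10 fell, against 28.9% higher and 70.9% lower among all features tested. Their median log2 fold change was -1.29, the same to 2 decimals as the median over all features tested, -1.29. Without the 4 genes above, 12 remained, of which 3 rose and 9 fell, with a median log2 fold change of -1.36. The list as a whole therefore had the direction of the table. With TMM over the table the 6 stayed higher, and 4 of the 10 stayed lower past the threshold, namely SAT1, CP, SLC1A4 and NOX4. Under that scaling 714 of all 2468 features tested were called higher and 480 lower. Listed genes outside the table, such as GCLC, SLC3A2, GPX4, FTH1 and ACSL4, were not analysed here.

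Of 23 genes of cystine and glutathione, 5 were in the table, of which 4 rose and 1 fell, against 28.9% higher and 70.9% lower among all features tested. With 5 genes chosen with earlier results known, this is a description. Beside SLC7A11 and GCLM, CHAC2, a glutathione-degrading cyclotransferase, rose from a normalized count of 289 ± 38.1 to 694 ± 33.7 (log2 fold change 1.26). MAT2A, which makes the methyl donor S-adenosylmethionine from methionine, rose from 7215 ± 371 to 16870 ± 764 (log2 fold change 1.23). OPLAH, which returns 5-oxoproline to glutamate, fell from 396 ± 13.3 to 161 ± 40.1 (log2 fold change -1.29), a change that was -0.10 and no longer called with TMM over the table (edgeR adjusted p = 0.74).

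Of 29 iron genes, 4 were in the table; 1 rose, TFRC, and 3 fell, near the 28.9% and 70.9% of all features tested. ACO1, the cytosolic aconitase that without its iron-sulfur cluster acts as iron-regulatory protein and binds elements like the TFRC hairpins above, had 2587, 2709 and 2820 normalized counts in WT and 1336, 986 and 1045 in CYGB-OE. The groups did not overlap, and the log2 fold change was -1.27 (SE 0.13; edgeR adjusted p = 3.47e-05). The call depended on the scaling, since the value was -0.07 with TMM over the table (edgeR adjusted p = 0.729). SLC25A37, the mitochondrial iron importer mitoferrin, fell from 9908 ± 438 to 3705 ± 768 (log2 fold change -1.42), which was -0.22 and not called with TMM over the table. CP, the ferroxidase ceruloplasmin, fell from 93.4 ± 3.80 to 11.6 ± 9.77 (log2 fold change -2.99, and -3.83 without CYGB-OE replicate 1), and rests on 3 to 21 counts in a CYGB-OE library.

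Of 21 polyamine genes, 3 were in the table, of which 1 rose and 2 fell, near the shares of all features. ODC1, the ornithine decarboxylase that opens polyamine synthesis, had 1339, 1383 and 1202 normalized counts in WT and 2600, 2810 and 2947 in CYGB-OE. The CYGB-OE libraries were all higher than the WT libraries, and the log2 fold change was 1.09 (SE 0.10; edgeR adjusted p = 2.34e-05). PAOX, the oxidase that acts on the acetylated polyamines made by SAT1, fell from 31.7 ± 0.81 to 6.09 ± 4.13 (log2 fold change -2.41), on 2 to 9 counts in a CYGB-OE library. With TMM over the table PAOX stayed below 0, at -1.23, but missed the threshold (edgeR adjusted p = 0.0505).

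Of 22 genes of membrane lipid peroxidation, 2 were in the table and both fell, as 70.9% of all features tested did. The lipoxygenases ALOX12B and ALOX15B had log2 fold changes of -1.74 and -1.29, from mean normalized counts of 94.8 and 29.8 in WT, and with TMM over the table of -0.55 and -0.10, neither called. ALOX15B also lost its call when adjusted over all annotated genes (edgeR adjusted p = 0.0671). Of 28 other regulators, 2 were in the table and both fell, again as 70.9% of all features tested did. SLC1A4, a neutral amino acid transporter, fell from 1368 ± 53.1 to 362 ± 32.0 (log2 fold change -1.92), and NOX4, a hydrogen peroxide producing oxidase, from 306 ± 16.6 to 55.3 ± 22.1 (log2 fold change -2.46).

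**Figure D4:**
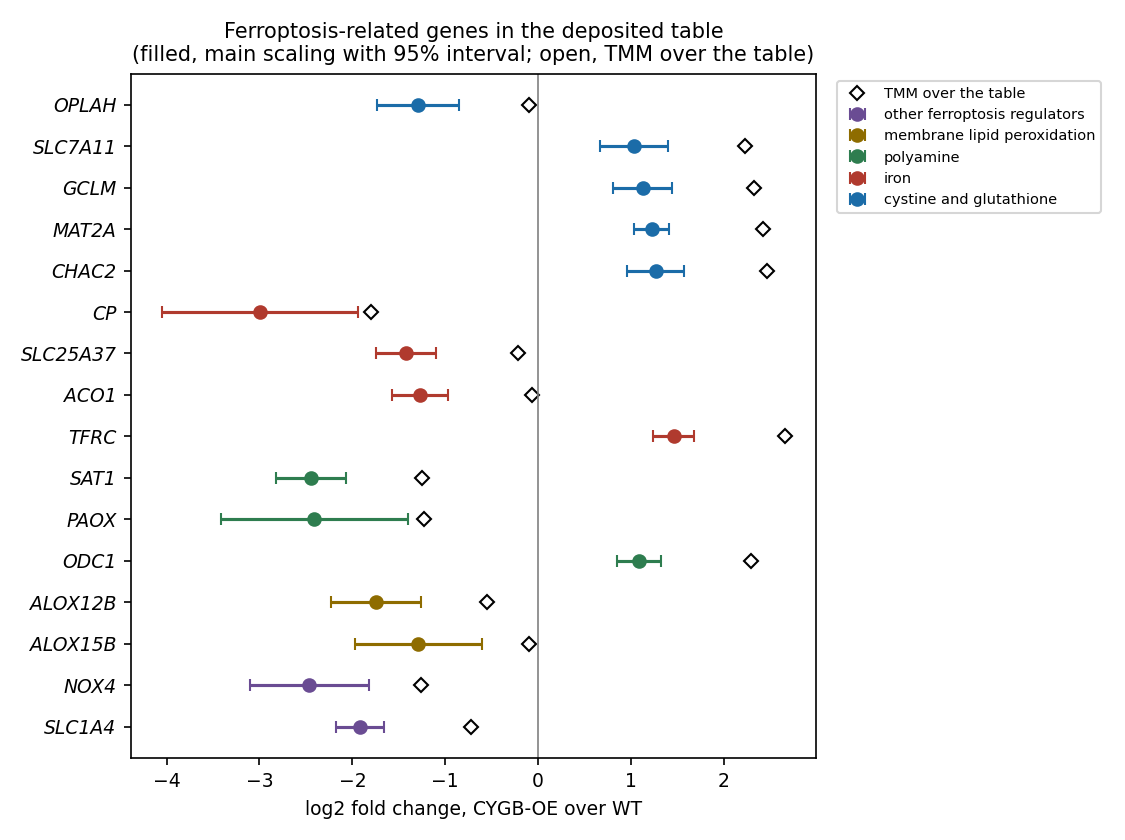
Log2 fold change (horizontal axis, CYGB-OE over WT) of the 16 ferroptosis-related genes in the table (vertical axis), coloured by role. Filled points are the main scaling with its 95% interval, and open diamonds are TMM over the table, which shifts every gene to the right. SLC7A11, GCLM, MAT2A, CHAC2, TFRC and ODC1 lie above 0 under both, and OPLAH, ACO1, SLC25A37 and ALOX15B come close to 0 with TMM over the table.

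Lists of targets of 2 known transcription programmes, NRF2 and ATF4, were also read. SLC7A11 is on both lists and GCLM on the NRF2 list only. Of 32 NRF2 targets 4 were in the table, of which 3 rose and 1 fell, against 28.9% and 70.9% of all features tested. SLC7A11 and GCLM, chosen beforehand with their direction known, are among those that rose. The count is therefore a description, and activity of NRF2 was not tested. SLC7A11, GCLM and PRDX1, a peroxiredoxin, rose (PRDX1 log2 fold change 1.16), and NR0B1, a nuclear receptor, fell (-1.05, which turned to 0.15 with TMM over the table). Of 25 ATF4 targets 4 were in the table; 1 rose, SLC7A11, and 3 fell, near the 28.9% and 70.9% of all features tested. DDIT3, the stress factor CHOP, fell from 733 ± 183 to 233 ± 48.4 (log2 fold change -1.65), ASNS, asparagine synthetase, had -1.45, and CEBPB, a bZIP transcription factor, had -1.15. With TMM over the table DDIT3 and ASNS had -0.45 and -0.26, neither called, and CEBPB turned to 0.046. ASNS also lost its call when adjusted over all annotated genes (edgeR adjusted p = 0.051). Of 29 glutathione transferases and peroxidases the table held only GPX3, the secreted glutathione peroxidase. GPX3 rose from 81.3 ± 4.14 to 257 ± 52.4 (log2 fold change 1.66), as 28.9% of all features tested rose.

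The genes whose profile over the 6 libraries was most like each member were found among 1061 named features with at least 100 normalized counts on average. Likeness was the root mean square difference between centred log2(normalized count + 1) profiles, given as a description. For SLC7A11 these were IGFBP2 (0.0527), PRELID3B (0.0622) and ANTXR2 (0.0932), which likewise had their lowest CYGB-OE value in replicate 1. For GCLM they included EPHA7 (0.0315) and RRM2 (0.0595), both highest in CYGB-OE replicate 1. For TFRC they were HSPH1 (0.0228), ADI1 (0.0327) and UHRF1 (0.0594). SAT1 had no comparably close neighbour, since AGAP2, FBXO32 and C1QTNF1 lay at 0.163, 0.167 and 0.198. None of those 3 shared the high value of SAT1 in WT replicate 2 to the same degree: AGAP2 had 686, 732 and 697 normalized counts in WT, against 3665, 5101 and 3504 for SAT1.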

How the data were processed

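The authors deposited 1 table of raw counts, with 1 column per library. Reads were trimmed, aligned and counted with tools that the submitters' processing notes list as STAR 2.5.2b, Trimmomatic 0.36, Subread 1.5.2 and featureCounts, on GRCh38. For annotation and strand setting, nothing is given in the sources used here. Per the labels' protocols, poly(A) RNA was captured and cDNA primed with random hexamers.

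The table is a selection, so TMM was run inside each group and the groups were levelled at the middle of the empty band of log2 ratios. All features entered edgeR 4.0.16 (R 4.3.3): filterByExpr with a minimum count of 10, quasi-likelihood F test, group as the only term, Benjamini-Hochberg adjustment, threshold 0.05. Standard errors come from the F statistic. Scripts were tested on simulated data. Positions, exon lengths and overlaps come from GENCODE release 29. Alternatives used other scalings, DESeq2 1.42.0, limma-voom (limma 3.58.1), no filter, a replicate block and each library left out. The 4 genes, the lists and the scaling were chosen with earlier results of these data known. Named genes are the 4, listed genes in the table, and the 3 features most like each of the 4. One feature that this rule names is not reported here.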

Additional observations from a re-analysis of the deposited data

How the results depend on the processing

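SLC7A11, GCLM, TFRC and SAT1 kept their direction and their call under all 15 alternatives, with log2 fold changes of 0.91 to 2.23, 0.98 to 2.33, 1.39 to 2.66 and -2.54 to -1.24. Keeping a call does not set the genes that rose apart. The count of higher features was 713, and 714 with TMM, upper-quartile factors, total counts and DESeq2's size factors. With single libraries left out, 708 to 751 features were called higher and 1761 to 1840 lower. The count of lower features, 1749, became 480 with TMM over the table, 910 with upper-quartile factors and 475 with DESeq2's size factors, and that of lower ferroptosis-related genes went from 10 to 4 with TMM over the table and 4 with DESeq2's size factors. These scalings raise all log2 fold changes, by 1.20 for TMM, 1.20 for DESeq2 and 0.86 for upper quartile. NR0B1 turned to 0.15 with TMM and 0.15 with DESeq2's size factors, and CEBPB to 0.046 and 0.0495. The log2 ratio of SLC7A11 over GCLM, -0.11, ranged from -0.29 to 0.22 with each library left out and turned positive without CYGB-OE replicate 1. Adding 1 count turned none of the 6 ratios.

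A link between libraries of the 2 groups is known only from their shared replicate numbers. Deviations of same-numbered libraries correlated at -0.0127, -0.0689 and -0.000475, and no WT library correlated best with its own number. With 3 libraries per group these correlations cannot decide whether same-numbered libraries were prepared together. With the replicate block 712 features were higher and 1750 lower. SLC7A11, GCLM, TFRC and SAT1 then had log2 fold changes of 1.01, 1.11, 1.46 and -2.43. Library depth is unknown, and 3 libraries per group limit exact tests to p = 0.1.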
